A study of Mus musculus with 30 samples.

Results

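The measurements described here compare gene expression with and without induction of the reprogramming factors Oct4, Sox2, Klf4 and cMyc (OSKM) in mouse secondary iPSCs that had differentiated for 48 h. The iPSCs carry OSKM transgenes that doxycycline (dox) switches on, GFP at the endogenous Nanog locus and a constitutive nuclear RFP, and they were kept on CF1 mouse embryonic fibroblast feeders in serum/LIF before exposure to 2i/LIF. Pluripotency exit was started by moving the cells from 2i/LIF into N2B27 medium, and after 48 h of this withdrawal they were re-seeded for a further 48 h in serum/LIF either without dox (–dox) or with dox (+dox). By design both arms therefore hold the same transgenes, the same reporters and the same history up to re-seeding, and they differ in dox. Whether they were handled and sequenced together is not stated in the sources used here. The values come from 1 cell system, and whether feeders were present after re-seeding is stated for the colony assay but not for RNA-seq.

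Polyadenylated RNA of 4 libraries was compared, 2 for each arm, out of 30 libraries in 15 conditions. The deposited table holds 22477 genes and gives each gene 1 value per condition in FPKM (fragments per kilobase of transcript, scaled to the mapped fragments of a library), a level per transcript length in which the authors combined both replicates. Genes were taken when their value reached at least 1 FPKM in either arm, which 12665 genes did. Accsl (0.711 FPKM –dox, 1.00 FPKM +dox) and Hdac9 (0.286 and 1.00 FPKM) lay just inside this limit, and D1Pas1 (0.701 and 0.9997 FPKM) and Mroh4 (0.299 and 0.9987 FPKM) just outside. A gene is said to have risen or fallen when its plain ratio of +dox to –dox reached 2-fold. Replicate values and read counts are not part of the table, so differences are given without error or test, and a ratio describes these combined libraries.

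Oct4 (encoded by Pou5f1) and Sox2 bind DNA together at enhancers of pluripotency genes, Klf4 is a zinc finger factor of the naive state and cMyc amplifies growth programs. Naive pluripotent cells leave this state through a formative stage, in which genes such as Fgf5 and Dnmt3b are switched on and genes such as Esrrb and Klf4 are lost, before primed cells respond to Wnt and Nodal signals by forming primitive streak. LIF acts through Stat3 to sustain the naive state, and serum supplies BMP-like and growth signals that the defined N2B27 medium lacks.

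Among the 12665 genes, 831 (6.56%) rose and 818 (6.46%) fell with dox, while 11016 stayed under 2-fold. The median log2 ratio was -0.02, and 5% to 95% of the genes lay between -1.15 and 1.15. Of the genes that moved, 215 rose and 221 fell by at least 4-fold, and 77 rose and 80 fell by at least 8-fold. The share past 2-fold depended on the level of the gene, from 36.3% of the 1314 genes whose higher value lay between 1 and 2 FPKM to 5.08% of the 2285 genes at 50 FPKM or more. Ratios of weakly expressed genes thus spread the most. A gene that reached 1 FPKM through one arm alone was likely to differ because of how it was chosen, and with 1 FPKM required in both arms 475 genes rose and 451 fell. Scaled to equal sums of FPKM, 770 rose and 1034 fell. The low values lie on regular steps, on which a gene of 2 kb at 1 FPKM stood at about 29.5 steps in the –dox arm and 30.2 in the +dox arm. Such steps are not read counts, and the depth of the libraries is unknown. All values of an arm summed to 780060 FPKM –dox and 832607 FPKM +dox, a log2 ratio of 0.09. In bulk RNA, fewer cells of a type and less RNA per cell cannot be told apart.

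**Figure D1:**
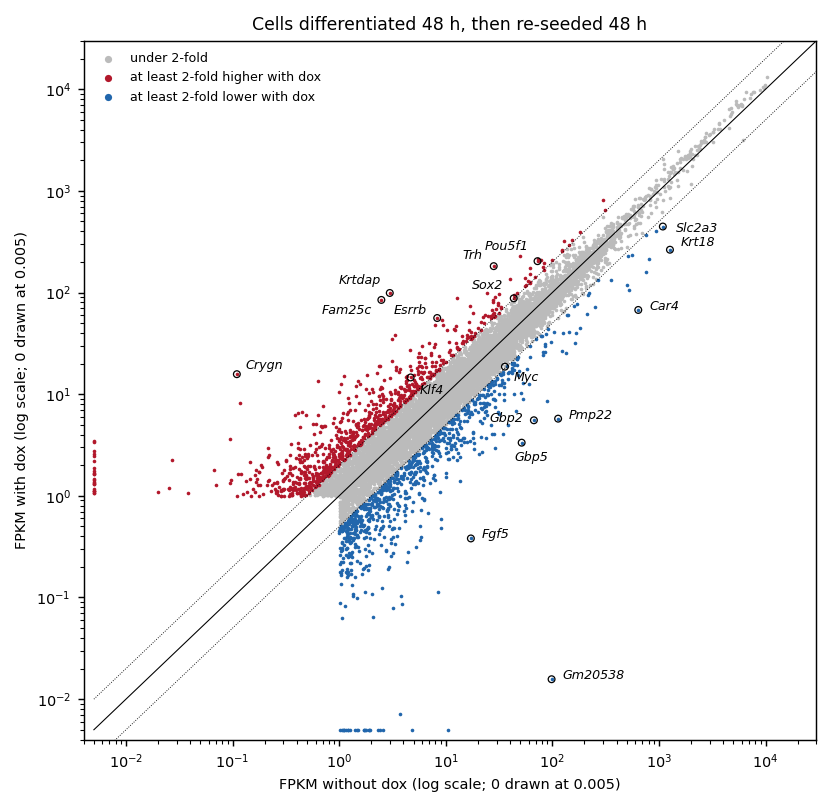
FPKM of each gene with dox (vertical, log scale) against without dox (horizontal, log scale), with 0 drawn next to the edge of the axes, the solid line at equal values and the dotted lines at 2-fold. Genes that rose by at least 2-fold are red, those that fell blue and the others grey. Circles mark named genes, of which Krtdap and Fam25c lie far above the lines and Pmp22, Car4 and Gm20538 far below, and 20 genes whose symbols a spreadsheet had turned into dates are not drawn.

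Of the OSKM genes, Pou5f1, Klf4 and, narrowly, Sox2 rose, and Myc narrowly missed a 2-fold fall. Their values add the endogenous transcript and any transgene transcript that maps to the same gene, so the part of each cannot be told apart. Pou5f1, on chromosome 17 from 35506018 to 35510772 (mm10), stood at 72.6 FPKM –dox and 203.5 FPKM +dox, a 2.80-fold rise. At the end of the 48 h withdrawal it had been at 205.4 FPKM. Gm19553, an antisense gene of the same locus chosen after its values were seen, moved with it from 11.7 to 24.1 FPKM, and the reads of the overlapping pair cannot be separated without strand. Klf4 (chromosome 4, 55527143 to 55532466) was at 4.68 FPKM –dox and 14.6 FPKM +dox, a ratio of 3.12. Sox2 (chromosome 3, 34650405 to 34652461) lay at 43.4 and 87.8 FPKM, a ratio of 2.02 that only just passed. Myc ran the other way, with 35.9 FPKM –dox and 18.7 FPKM +dox, 1.92-fold lower. The calls of Sox2 and Myc depended on the scaling: with both arms scaled to equal sums, their log2 ratios were 0.92 and -1.04, and that of Sox2 was 0.999 after adding 1 FPKM. All but Myc were thus higher in the dox arm, although Klf4 remained well under the 92.7 FPKM that it had at 0 h of withdrawal.

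Of the genes of naive pluripotency, 15 of the 28 that reached 1 FPKM rose and 0 fell, with a median log2 ratio of 1.14 against -0.02 for all genes. The largest rises were those of Jam2, Tcl1, Nr0b1 and Tdh. Jam2, a junctional adhesion molecule, went from 3.15 FPKM –dox to 34.6 FPKM +dox. Tcl1, a co-activator of Akt, was at 0.636 and 6.21 FPKM. Nr0b1, an orphan nuclear receptor that partners Oct4, was at 2.29 and 16.3 FPKM. Tdh, the threonine dehydrogenase on which mouse pluripotent cells depend for growth, was at 12.8 and 87.5 FPKM. Genes named below beyond the 4 with the largest ratio in each direction of a list were chosen after their values were seen. The orphan receptor Esrrb rose from 8.31 to 56.2 FPKM, the transcription factor Tfcp2l1 from 7.84 to 31.5 FPKM and the zinc finger factor Zfp42 (Rex1) from 18.1 to 62.9 FPKM. Nanog itself stayed under 2-fold, at 32.9 FPKM –dox and 48.6 FPKM +dox, as did Klf2 (17.2 and 27.0 FPKM) and Klf5 (55.1 and 59.2 FPKM). Sall4, a zinc finger partner of Oct4, was at 97.1 and 87.1 FPKM, and the co-repressor Trim28 at 1018 and 931 FPKM. Many of these genes stayed below where the cells had begun, since Esrrb had been at 149.9 FPKM, Tfcp2l1 at 124 FPKM and Jam2 at 221.9 FPKM at 0 h of withdrawal.

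Prdm14, a repressor that guards the naive state, stayed under 1 FPKM in both arms, at 0.167 and 0.794 FPKM. The dioxygenase genes Tet1 and Tet2, whose products oxidize methylated cytosine, both rose. Tet1 was at 9.51 FPKM –dox and 47.6 FPKM +dox, and Tet2 at 2.16 and 5.2 FPKM. The methyltransferase genes did not move with them: Dnmt3a lay at 31.8 and 30.3 FPKM, Dnmt3b at 98.5 and 63.8 FPKM and Dnmt3l at 62.5 and 66.4 FPKM. All 3 were far lower than at the end of withdrawal, where they had reached 292, 586 and 221 FPKM. Of the 13 genes of DNA methylation and demethylation, 2 rose and 0 fell, against 6.56% and 6.46% of all genes compared. Polycomb subunits gave a like count, with 2 of 17 higher and 0 lower, too few to set either list apart from all genes. These were Phc1, a subunit of the first Polycomb complex (123 and 265 FPKM), and Phf19, an accessory subunit of the second (1.34 and 5.39 FPKM).

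Germline genes, many of which are active in naive cells, included 6 higher and 0 lower members out of 20, with a median log2 ratio of 0.68 against -0.02 for all genes, which was 0.086 with a minimum of 5 FPKM. Tdrd12, a Tudor protein of the piRNA pathway, rose from 5.93 to 29.6 FPKM. The meiotic genes Hormad1 (0.673 to 3.06 FPKM) and Stag3 (6.03 to 18.6 FPKM) and the PIWI gene Piwil2 (1.71 to 5.70 FPKM) rose as well. The homeobox gene Rhox5 did not, at 89.2 and 73.0 FPKM. Genes of the 2-cell-like state were silent in both arms, as 0 of the 16 found in the table reached 1 FPKM.

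The signalling genes around LIF and FGF split. Of 16 genes of the LIF receptor and Stat3 pathway, 3 rose and 0 fell, against 6.56% and 6.46% of all genes compared. The receptor gene Lifr was at 1.98 FPKM –dox and 8.63 FPKM +dox, and the feedback inhibitor Socs3 at 21.3 and 43.0 FPKM, with Klf4 as the other riser. The shared co-receptor Il6st (11.7 and 18.8 FPKM) and Stat3 (19.9 and 26.2 FPKM) stayed under 2-fold. Fgf4, the FGF ligand of pluripotent cells, rose from 9.14 to 54.0 FPKM. Among 22 genes of ERK feedback and the immediate early response, 3 rose and 4 fell. The risers were the ERK feedback inhibitor Spry4 (6.95 to 31.5 FPKM) and the Ets factors Etv4 (10.2 to 42.3 FPKM) and Etv5 (57.2 to 118 FPKM). The immediate early genes Ier3 (81.6 to 24.2 FPKM), Atf3 (15.7 to 6.54 FPKM), Dusp1 (86.7 to 39.4 FPKM) and Fosl2 (5.19 to 2.40 FPKM) fell. The other 15 genes stayed under 2-fold, among them the feedback inhibitor Spry2 (28.9 and 28.3 FPKM), the phosphatase gene Dusp6 (46.9 and 70.2 FPKM) and the immediate early genes Egr1 (8.98 and 17.1 FPKM) and Jun (14.9 and 12.8 FPKM), and the median log2 ratio was 0.04.

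Formative and primed genes went in both directions, with 4 higher and 7 lower of 25, against 6.56% and 6.46% of all genes compared. The list's median log2 ratio was -0.37. Of the 11 genes that moved, 4 had reached 1 FPKM through 1 arm alone, which fixed their direction. Fgf5, the classical marker of the epiblast that has left the naive state, was at 17.2 FPKM –dox and 0.381 FPKM +dox, on chromosome 5 from 98254184 to 98277030. It had been at 37.3 FPKM at the end of withdrawal and at 0.164 FPKM at its start, so the –dox arm still held part of the level gained, and the +dox arm little of it. Wnt8a, a Wnt ligand of the early streak, was at 3.88 and 0.0862 FPKM. The zinc finger gene Sall2 fell from 9.97 to 1.69 FPKM and the SoxB1 gene Sox3 from 10.5 to 2.31 FPKM. The POU factor gene Pou3f1 (Oct6) was lower as well, at 23.9 and 7.61 FPKM. In the other direction, the homeobox gene Otx2, which drives the formative state, rose from 13.1 to 27.7 FPKM and the FGF ligand gene Fgf15 from 0.563 to 1.39 FPKM. Etv4 and Etv5, named above, complete the risers. Lef1 had been at 45.5 FPKM when the cells were re-seeded and was low in both arms, at 1.41 FPKM –dox and 0.448 FPKM +dox.

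**Figure D2:**
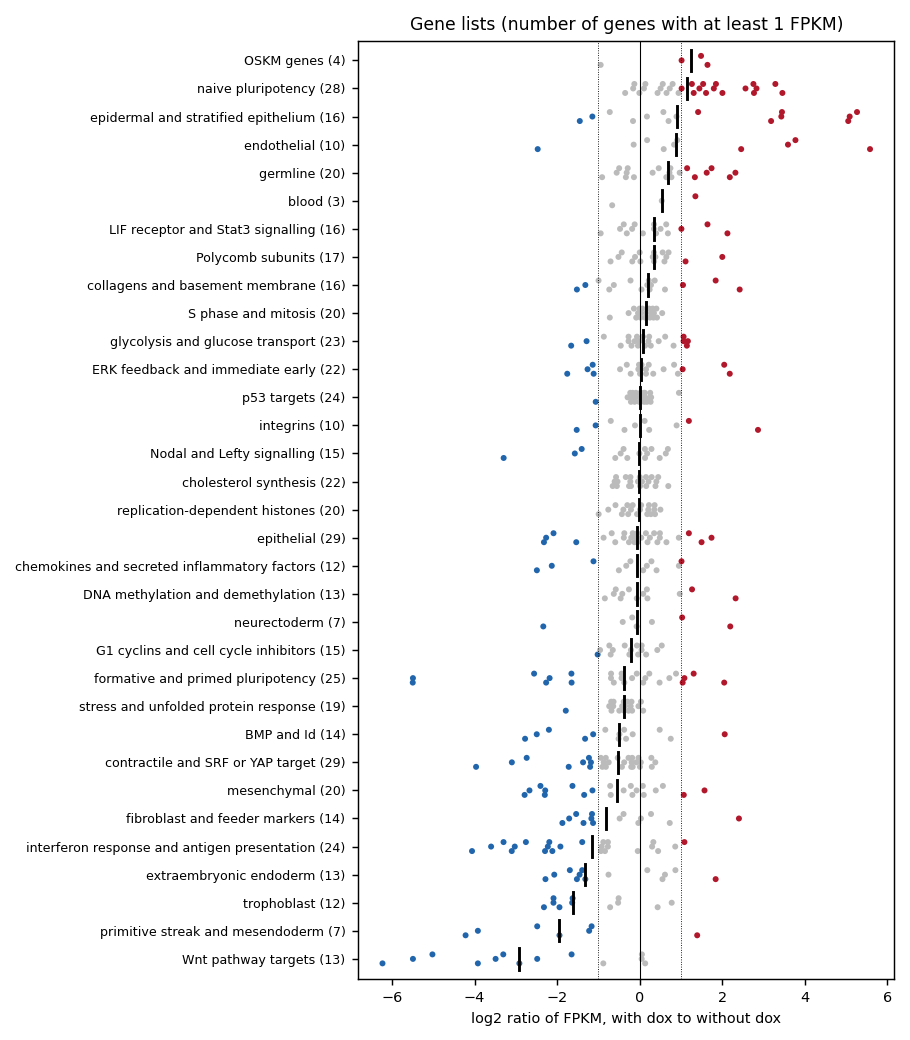
Log2 ratio of FPKM with dox to without dox for the genes of each list, ordered by the list's median (black bar), with the number of genes that reached 1 FPKM in brackets. Red points rose and blue points fell by at least 2-fold, dotted lines mark 2-fold, and genes at 0 in an arm have no point. Naive pluripotency genes lie to the right, with a median of 1.14, and Wnt targets to the left, with a median of -2.91.

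The lowest median of any list was that of Wnt pathway targets, at -2.91, where 9 of 13 genes fell and 0 rose. All 9 were under 1 FPKM with dox and had entered the list through the –dox arm alone, which fixed their direction, so the count and the median describe these genes and support nothing further. Sp5, a zinc finger factor and direct target of β-catenin, was at 8.48 FPKM –dox and 0.113 FPKM +dox. The secreted Wnt antagonist Dkk1 was at 2.08 and 0.0642 FPKM. T (Brachyury), the T-box factor of the primitive streak, was at 5.90 and 0.390 FPKM. Axin2, the most widely used readout of Wnt signalling, fell likewise, from 6.75 to 0.683 FPKM. At the end of withdrawal Sp5 had been at 0.0734, Dkk1 at 0.0852 and T at 0.0653 FPKM. At 0 h of withdrawal, however, Sp5 had been at 26.7, Axin2 at 23.7 and T at 2.85 FPKM, so that Sp5 and Axin2 had begun above both arms. Tcf7 (27.2 and 28.3 FPKM), Ccnd1 (28.5 and 29.5 FPKM) and the receptor gene Fzd7 (28.5 and 31.3 FPKM), which are expressed in many states, hardly differed between the arms. Because this list rests on many weakly expressed genes, its median depended on the settings, and it was -1.43 after adding 1 FPKM to both values.

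Genes of the primitive streak and mesendoderm moved in the same direction. Only 7 of the 21 reached 1 FPKM, of which 6 fell and 1 rose, against 6.46% and 6.56% of all genes compared. The list's median log2 ratio was -1.94, and T and Wnt3 stand in the Wnt list too. The median was -1.0 after adding 1 FPKM and -3.92 with a minimum of 5 FPKM. Of the 7 genes, 5 had reached 1 FPKM through one arm alone, so that their direction was fixed by the minimum. The FGF ligand gene Fgf8 was at 8.99 FPKM –dox and 0.483 FPKM +dox, Wnt3 at 3.28 and 0.587 FPKM and the bHLH factor Hand1 at 1.86 and 0.485 FPKM. Mesp2, a bHLH factor of mesoderm, was at 0.402 and 1.06 FPKM. The mesendoderm genes Mixl1 (0.332 and 0.180 FPKM) and Foxa2 (0.705 and 0.0328 FPKM) did not reach 1 FPKM, and Cer1 was listed at 0 in both arms.

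Among Nodal pathway genes, 0 of 15 rose and 3 fell, against 6.56% and 6.46% of all genes compared. The Nodal antagonist Lefty1 was at 96.2 and 32.4 FPKM, and the ligand Nodal itself at 61.5 and 23.2 FPKM. The co-receptor gene Tdgf1 (Cripto) differed little and in the other direction, with 130 and 202 FPKM. In the BMP and Id list, 5 of 14 fell and 1 rose. Of these 6 genes, 4 (Msx2, Nog, Dlx3 and Id4) had reached 1 FPKM through 1 arm alone, so that their direction was fixed by the minimum. The homeobox gene Msx2 (1.21 to 0.177 FPKM), the BMP antagonist Nog (4.95 to 0.878 FPKM), the inhibitor of differentiation Id3 (30.6 to 6.68 FPKM), the homeobox gene Dlx3 (2.04 to 0.817 FPKM) and the ligand Bmp4 (4.48 to 2.05 FPKM) were lower. Id4 rose from 0.844 to 3.52 FPKM, and Id1 stood at 51.1 and 86.1 FPKM. Id3 was thus lower and Id1 higher, the latter under 2-fold.

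Of the 12 trophoblast genes that reached 1 FPKM, 7 fell and 0 rose, against 6.46% and 6.56% of all genes compared. The list's median log2 ratio was -1.62. The simple keratin gene Krt8 was at 527 FPKM –dox and 105.7 FPKM +dox, and Krt7 at 18.0 and 4.23 FPKM. Peg10, a retrotransposon-derived imprinted gene needed for placenta, was at 506 and 119 FPKM, and Plac1 at 1.41 FPKM –dox and listed at 0 with dox. The lineage factor genes of the list differed among themselves. Gata3 (5.27 to 1.71 FPKM), Gata2 (2.88 to 0.929 FPKM) and Hand1 fell, Tfap2c (11.7 and 15.9 FPKM) and Tead4 (15.4 and 26.4 FPKM) stayed under 2-fold, and Cdx2 (0.124 and 0 FPKM) and Elf5 (0.169 and 0.204 FPKM) were near 0. Of the 7 lower genes, 3 had reached 1 FPKM through the –dox arm alone. Of 13 genes of extraembryonic endoderm, 7 fell and 1 rose, at a median of -1.32, which was -0.60 after adding 1 FPKM and -0.57 with a minimum of 5 FPKM. The summed level of the list was 209 FPKM –dox and 214 FPKM +dox, and 4 of the 8 genes that moved had reached 1 FPKM through one arm alone. Dab2, an endocytic adaptor, fell from 21.8 to 5.19 FPKM, the collagen gene Col4a2 from 21.2 to 7.4 FPKM, the protease gene Plat from 2.39 to 0.739 FPKM, and the factors Sox7 from 1.24 to 0.256 FPKM and Sox17 from 1.19 to 0.435 FPKM. Lama1, the laminin chain of the earliest basement membrane, rose from 2.21 to 7.92 FPKM. Gata4 (0.931 and 1.37 FPKM) and Gata6 (0.798 and 0.557 FPKM) stayed under 2-fold, and the yolk sac genes Ttr (0 in both arms), Afp (0.0355 and 0 FPKM) and Hnf4a (0 and 0.0146 FPKM) were at or near 0.

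Neurectoderm genes were few. Of 22, 7 reached 1 FPKM, with Crabp1, a retinoic acid binding protein (3.61 to 16.5 FPKM), and the microtubule gene Map2 (3.29 to 6.71 FPKM) higher and the homeobox gene Meis2 (4.12 to 0.817 FPKM) lower. Sox1 (0.207 and 0.151 FPKM) and Pax6 (0.120 and 0.476 FPKM) were under 1 FPKM in both arms.

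Keratin genes moved in both directions. Among simple keratins of early epithelia, Krt18 was at 1268 FPKM –dox and 263.7 FPKM +dox, Krt8 and Krt7 fell as given above, and Krt19 was at 85.9 and 29.6 FPKM. Krt18 had been at 11.4 FPKM at 0 h and 55.2 FPKM at 48 h of withdrawal, so both arms were above the level at re-seeding. Of the keratins of stratified epithelia, some rose: Krt14 was at 0.433 and 4.72 FPKM, Krt16 at 0.0945 and 3.63 FPKM and Krt17 at 1.5 and 13.6 FPKM. Their neighbour Krt42 rose from 1.45 to 11.9 FPKM. Krt10 (1.57 and 1.40 FPKM) stayed under 2-fold, and Krt1 (0.141 and 0.30 FPKM), Krt5 and Krt6a did not reach 1 FPKM. Reads of such related genes can be assigned to the wrong copy, which makes single keratin values uncertain. Across 29 epithelial genes, 3 rose and 4 fell, against 6.56% and 6.46% of all genes compared, too few to set the list apart. The fallers were these 4 simple keratins. The adhesion genes Cdh1 (E-cadherin, 167 and 171 FPKM) and Epcam (181 and 215 FPKM) differed by little, whereas Cdh3 (P-cadherin) rose from 6.59 to 18.6 FPKM, the integrin gene Itgb4 from 2.31 to 5.27 FPKM and the zinc finger gene Ovol1 from 0.341 to 1.14 FPKM.

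The epidermal and stratified list had 8 higher and 2 lower genes of 16, against 6.56% and 6.46% of all genes compared. Its median log2 ratio was 0.89. Krtdap, a secreted product of differentiating keratinocytes, was at 2.98 FPKM –dox and 99.0 FPKM +dox. Fam25c was at 2.49 and 84.6 FPKM, and the calcium-binding S100a14 was listed at 0 without dox and at 1.86 FPKM with dox. The members differ in history, since Fam25c had been at 286 FPKM at 0 h of withdrawal while Krtdap had been at 2.46 FPKM. The cell cycle regulator Sfn fell from 220 to 99.6 FPKM and the connexin gene Gjb2 from 2.25 to 0.823 FPKM. Other keratinocyte genes were at or near 0: Trp63 was at 0.170 and 0 FPKM, Krt5 at 0 in both arms, Krt6a at 0 and 0.0298 FPKM and Ivl at 0.0746 and 0 FPKM. Of the 10 genes that moved, 5 had reached 1 FPKM through one arm alone.

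Of the interferon-responsive genes and genes of antigen presentation, 12 of 24 fell and 1 rose, against 6.46% and 6.56% of all genes compared. The list's median log2 ratio was -1.17, and 8 of the 13 genes that moved had reached 1 FPKM through one arm alone. Gbp2, a guanylate-binding GTPase, was at 67.1 FPKM –dox and 5.54 FPKM +dox. The chemokine gene Cxcl10 was at 13.6 and 1.38 FPKM, and Gbp7 at 3.48 and 0.407 FPKM. Psmb8, a subunit of the immunoproteasome, was at 5.28 and 0.317 FPKM. Gbp5 (51.5 and 3.33 FPKM), which is not in the list but among the largest falls, gave a like picture, and the Gbp genes are similar enough that reads may be shared between them. The transcription factor gene Irf1 fell from 43.3 to 10.0 FPKM. Stat2 (4.71 and 6.42 FPKM) and Irf9 (2.87 and 3.61 FPKM), whose products act together in the interferon signal, stayed under 2-fold. B2m, the light chain of class I molecules, was higher with dox, at 193 and 351 FPKM, though under 2-fold, and Xaf1 rose from 2.05 to 4.34 FPKM. At re-seeding Gbp2 had been at 0.796 and Gbp5 at 0.764 FPKM, and 10 genes of the list, among them Ifit1 and Rsad2, were under 1 FPKM in both arms.

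Promoters were read to see which of these genes carry the letters of an interferon-stimulated response element. The 250 bases before the start were taken from RefSeq (GRCm38.p6, the same assembly as mm10), where 9347 of the 12665 genes (73.8%) had a window. The core searched for, on both strands, was GAAA, any 2 bases and GAAA again. It occurred in windows of 6 of the 11 lower genes of the interferon list that had a window, namely Gbp2, Gbp3, Gbp7, Isg15, Igtp and Cxcl10, and in 9 of the 21 genes of the list in all. It was found in 2.80% of all genes compared, in 31 of the lower genes (5.68%) and in 10 of the higher genes (1.75%). Of these genes, 4 are printed because they show the element at different distances from the start, with the core, or overlapping copies of it, in capitals; the strand is that of the gene, and in Gbp7 the core reads on the other strand. The windows are chr3:142530236-142530335 (plus strand) for Gbp7, chr4:156200819-156200918 (minus strand) for Isg15, chr11:58199456-58199555 (plus strand) for Igtp and chr5:92348890-92349139 (minus strand) for Cxcl10.
Gbp7: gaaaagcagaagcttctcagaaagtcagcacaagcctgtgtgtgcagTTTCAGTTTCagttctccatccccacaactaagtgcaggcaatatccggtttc
Isg15: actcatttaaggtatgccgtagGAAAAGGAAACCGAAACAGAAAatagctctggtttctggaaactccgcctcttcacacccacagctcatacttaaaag
Igtp: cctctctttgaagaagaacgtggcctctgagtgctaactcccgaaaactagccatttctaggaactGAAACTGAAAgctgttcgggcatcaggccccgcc
Cxcl10: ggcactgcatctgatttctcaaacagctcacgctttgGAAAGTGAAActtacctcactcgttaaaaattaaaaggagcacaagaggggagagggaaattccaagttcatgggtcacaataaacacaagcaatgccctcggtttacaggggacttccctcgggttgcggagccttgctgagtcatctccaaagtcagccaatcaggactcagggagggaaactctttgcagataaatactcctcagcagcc
The core starts 53 bases before the start of Gbp7 and 34 bases before that of Igtp. These are RefSeq starts, and that of Gbp7 did not match a transcript start of Gencode M21. Of all 32851 windows, 35.8% matched such a start. Isg15 has 3 overlapping copies between 78 and 66 bases before its start, and the copy of Cxcl10 lies 213 bases before. Isg15, a ubiquitin-like protein, was at 5.90 FPKM –dox and 0.724 FPKM +dox, and the GTPase gene Igtp at 3.67 and 0.786 FPKM. A match of letters is a description of the promoter and not of a factor bound there.

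The octamer bound by POU factors such as Oct4, ATGCAAAT, was looked for in the same way. It occurred in windows of 2 of the 10 higher naive genes that had a window, Zfp42 and Spp1, and in 1.5% of all genes compared, 2.63% of the higher and 2.01% of the lower genes. The Sox box ACAAAG occurred in 14.4% of all genes, 18.8% of the higher and 15.2% of the lower genes. The KLF and Sp box GGGC followed by GGGG was found in 35.5% of all, 31.8% of the higher and 32.8% of the lower genes. The E-box CACGTG was found in 10.2%, 9.47% and 6.59%, the TEAD site GGAATG in 12.9%, 14.2% and 15.6%, and the CArG box of SRF in 1.40%, 2.11% and 1.28%, in the same order. No test was made of these shares, and many sites of these factors lie in enhancers outside such windows. The windows of Zfp42, at chr8:43307010-43307259 (minus strand), and of Spp1 (osteopontin, 31.7 FPKM –dox and 96.6 FPKM +dox), at chr5:104435942-104436191 (plus strand), are printed because they hold the octamer, in capitals, which in Zfp42 reads on the other strand.
Zfp42: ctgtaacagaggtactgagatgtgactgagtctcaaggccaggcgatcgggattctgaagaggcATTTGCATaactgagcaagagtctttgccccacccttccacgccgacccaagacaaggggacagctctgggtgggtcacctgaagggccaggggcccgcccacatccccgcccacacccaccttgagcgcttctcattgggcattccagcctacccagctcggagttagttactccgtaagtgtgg
Spp1: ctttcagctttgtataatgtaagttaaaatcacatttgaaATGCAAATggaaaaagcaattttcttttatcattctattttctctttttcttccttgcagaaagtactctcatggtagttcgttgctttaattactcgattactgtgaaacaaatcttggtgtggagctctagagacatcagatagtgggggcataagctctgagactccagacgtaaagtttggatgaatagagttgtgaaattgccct
The octamer starts 186 bases before the start of Zfp42 and 210 bases before that of Spp1. The start used for Zfp42 did not match a transcript start of Gencode M21.

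Contractile and cytoskeletal genes, many of them targets of SRF or YAP, leaned to lower values, at a median log2 ratio of -0.53. In this list 8 of 29 fell and 0 rose, against 6.46% and 6.56% of all genes compared. The filamin gene Flnc was at 34.6 FPKM –dox and 4.05 FPKM +dox, the caveolin gene Cav1 at 5.69 and 0.365 FPKM and the nuclear ankyrin repeat gene Ankrd1 at 3.14 and 0.471 FPKM. Cav1 and Ankrd1 had reached 1 FPKM through the –dox arm alone, which fixed their direction. The matrix glycoprotein Thbs1 was at 85.7 and 26.1 FPKM. The tropomyosin gene Tpm1 fell from 938 to 400.4 FPKM. The YAP targets Ctgf (53.6 and 46.5 FPKM) and Cyr61 (116 and 101 FPKM) and the myosin gene Myh9 (236 and 210 FPKM) stayed under 2-fold. Of the 29 ratios, 24 lay below 0 and 5 above, and 21 genes stayed under 2-fold.

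Mesenchymal genes showed 8 lower and 2 higher of 20, against 6.46% and 6.56% of all genes compared. The list's median of -0.54 was -0.18 with a minimum of 5 FPKM. Of the 10 genes that moved, 5 had reached 1 FPKM through 1 arm alone, so that their direction was fixed by the minimum. Tgfb2, Twist2 and Zeb2 are among them. Vim, the intermediate filament of mesenchymal cells, was at 135 FPKM –dox and 25.5 FPKM +dox. Tgfb2 (3.30 and 0.478 FPKM), Twist2 (1.05 and 0.165 FPKM) and Zeb2 (1.22 and 0.248 FPKM) were lower as well. The S100 genes S100a4 (3.83 and 11.4 FPKM) and S100a6 (311 and 652 FPKM) rose. The inducer of the transition Snai1 was at 2.84 and 2.45 FPKM, and Fn1 (fibronectin) at 98.3 and 145 FPKM.

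Fibroblast and feeder markers were lower too, in 7 of 14 genes with 1 higher, against 6.46% and 6.56% of all genes compared. The median of these markers was -0.81. Their summed level was 316 FPKM –dox and 226 FPKM +dox over the whole list of 25, most of which came from Sparc (270 and 193 FPKM). The fibrillar collagen genes Col5a2 (8.30 and 2.27 FPKM), Col5a1 (8.61 and 2.64 FPKM), Col1a2 (4.32 and 1.49 FPKM) and the microfibrillar Col6a2 (1.31 and 0.510 FPKM) fell. Thy1 rose from 1.55 to 8.20 FPKM. Of the 8 genes that moved, 3 had reached 1 FPKM through 1 arm alone, which fixed their direction. Some fibroblast genes were at or near 0 in both arms, with Fap listed at 0, Lum at 0.211 and 0 FPKM and Col3a1 at 0.953 and 0.255 FPKM, whereas Col1a1 and Col3a1 had been at 229 and 201 FPKM at 0 h of withdrawal. The part of fibroblast transcripts in the other differences was not tested.

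Of 10 endothelial genes, 4 rose and 1 fell, against 6.56% and 6.46% of all genes compared. Tek, the angiopoietin receptor, was at 1.03 FPKM –dox and 12.5 FPKM +dox, and its relative Tie1 at 0.0251 and 1.2 FPKM. Pecam1, an adhesion molecule that naive pluripotent cells share with endothelium, was at 2.05 and 11.3 FPKM and had been at 45.0 FPKM at 0 h of withdrawal. Vwf was at 0.120 and 1.64 FPKM. Tie1 and Vwf had reached 1 FPKM through the +dox arm alone, which fixed their direction. The VEGF receptor gene Flt1 fell from 8.0 to 1.44 FPKM. The endothelial genes Cdh5 (0.244 and 0.0482 FPKM), Erg and Emcn (0 in both arms) were at or near 0, and the summed level of all 22 genes was 100.7 and 132.4 FPKM. Blood genes were nearly absent, with 3 of 18 at 1 FPKM or more, the lysosomal Cd68 (16.6 to 42.4 FPKM) the one that rose and Ptprc (CD45) at 0 and 0.0299 FPKM.

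In the list of S phase and mitosis, 0 of 20 passed in either direction, with Mki67 at 45.7 and 53.5 FPKM and Ccnb1 at 178 and 195 FPKM, and replication-dependent histone genes gave 0 of 20. Of 15 G1 cyclins and inhibitors, Ccne2 alone passed (10.7 to 5.29 FPKM), while the inhibitor Cdkn2a lay at 16.5 and 8.47 FPKM, just under 2-fold. Among 24 p53 targets, Plk2 fell (46.8 to 22.4 FPKM) and Cdkn1a was at 64.4 and 55.7 FPKM. Stress genes gave 1 lower of 19, the heat shock gene Hspa1b (3.19 to 0.924 FPKM), which reached 1 FPKM through the –dox arm alone. Ratios of 17 stress genes lay below 0 and of 2 above, with a median log2 ratio of -0.38. The few genes past 2-fold in these lists stand against 6.56% and 6.46% of all genes compared.

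Metabolic genes moved in part. The glucose transporter genes Slc2a1 (Glut1, 125 to 39.6 FPKM) and Slc2a3 (Glut3, 1088 to 446 FPKM) fell. The glycolytic genes Pfkm (12.7 to 28.6 FPKM), Pfkp (19.0 to 39.7 FPKM) and Aldoc (7.06 to 14.8 FPKM) and the mitochondrial gatekeeper Pdk1 (23.0 to 50.7 FPKM) rose. Gapdh, at 2079.5 and 2073 FPKM, and Ldha, at 292 and 269 FPKM, stayed near 1-fold, which leaves 4 higher and 2 lower of 23. Cholesterol synthesis showed 0 of 22 in either direction. Of all genes compared, 6.56% rose and 6.46% fell.

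Of 16 genes of collagens and basement membrane, 3 rose and 2 fell: the laminin genes Lama3 (0.449 to 2.41 FPKM) and Lama1 and the nidogen gene Nid1 (5.68 to 11.8 FPKM) were higher, and the type IV collagen genes Col4a1 (24.4 to 9.81 FPKM) and Col4a2 lower. Of 10 integrins, Itgb7 (0.343 to 2.5 FPKM) and Itgb4 rose and Itga3 (78.3 to 37.4 FPKM) and Itgb8 (1.22 to 0.425 FPKM) fell. Among 12 chemokines and secreted inflammatory factors, the macrophage growth factor Csf1 (18.4 to 3.27 FPKM), the alarmin Il33 (4.15 to 0.948 FPKM) and Ccl7 (1.22 to 0.561 FPKM) fell and Ptgs2 (0.795 to 1.61 FPKM) rose. Of the 4 genes that moved in this list, 3 had reached 1 FPKM through 1 arm alone, which fixed their direction. The same held for 2 of the 4 integrins and 1 of the 5 genes of collagens and basement membrane. Of all genes compared, 6.56% rose and 6.46% fell. Saa3, an acute phase gene at 2019 FPKM at 0 h of withdrawal, was at 3.03 and 3.69 FPKM.

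The 20 largest ratios in each direction, taken where the higher arm reached 10 FPKM and the lower arm 1 FPKM, ran from 6.10-fold to 34.0-fold for the rises and from 5.71-fold to 19.7-fold for the falls. Fam25c (chromosome 14, 34351881 to 34355433) and Krtdap (chromosome 7, 30787896 to 30791097) led the rises at 34.0-fold and 33.2-fold. Trh, the precursor of thyrotropin-releasing hormone, reached the highest level of them, at 28.2 FPKM –dox and 181.8 FPKM +dox. Others encode the Wnt modulator Sfrp1 (3.12 and 21.2 FPKM), the transcription factor Myb (1.77 and 11.2 FPKM), the metalloprotease-like Adam23 (7.92 and 48.3 FPKM) and the GPI-anchored Cd109 (1.01 and 10.5 FPKM). Srrm4os (1.10 and 15.2 FPKM) lies antisense to Srrm4, and the pair cannot be told apart where strand was not used in counting. The rises also hold Sh3gl2 (3.37 and 38.4 FPKM), Ly6g6e (1.82 and 15.3 FPKM), the phosphodiesterase gene Pde9a (2.35 and 18.8 FPKM), the oxidase gene Pipox (1.58 and 12.6 FPKM) and the actin nucleator Cobl (2.43 and 19.08 FPKM).

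Pmp22 (chromosome 11, 63128982 to 63159547), a membrane protein of myelin and epithelia, showed the largest fall, from 113 to 5.74 FPKM or 19.7-fold. Car4 (chromosome 11, 84957786 to 84966044), a membrane-bound carbonic anhydrase, was at 639.8 FPKM –dox and 67.4 FPKM +dox. Phldb2, which sits at the cell cortex near adhesions, was at 88.1 and 8.65 FPKM. The falls also include the axonal growth protein gene Gap43 (38.0 and 5.03 FPKM), the iodide symporter gene Slc5a5 (20.4 and 2.56 FPKM), the retinol dehydrogenase gene Rdh10 (27.4 and 4.03 FPKM), the CNTF receptor gene Cntfr (28.1 and 4.05 FPKM) and the matrix gene Efemp1 (46.0 and 6.85 FPKM). Wnt4 (12.9 and 2.23 FPKM), the cytokine gene Ltb (21.6 and 3.79 FPKM), the cytidine deaminase gene Cda (10.1 and 1.54 FPKM), the phosphatase subunit gene Ppp4r4 (23.7 and 3.73 FPKM) and the scavenger receptor gene Colec12 (52.5 and 8.97 FPKM) follow. Cxx1a (18.3 and 2.89 FPKM) and Cxx1b (21.9 and 2.68 FPKM) are close copies of each other, so reads may be shared between them.

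All 20 of these genes, which were chosen for a high –dox value, were higher in the –dox arm than at 0 h or 48 h of withdrawal, as that choice favours, and all but Car4, Flnc, Slc5a5 and Gap43 had been under 10 FPKM at re-seeding. Pmp22 had been at 1.51 FPKM at 48 h of withdrawal and Phldb2 at 2.49 FPKM. Car4 had already reached 78.4 FPKM, close to the 67.4 FPKM of the dox arm. Among the rises, Fam25c, Jam2, Tdh, Nr0b1, Sfrp1, Ly6g6e, Krt42, Cobl and Esrrb reached levels with dox that lay between those at 0 h and 48 h of withdrawal. Esrrb at 56.2 FPKM with dox had been at 149.9 FPKM at 0 h and 12.8 FPKM at 48 h. Trh, Krtdap, Tek, Adam23, Srrm4os, Sh3gl2, Cd109, Krt17 and Pde9a were higher with dox than at either of these time points. Myb, at 11.2 FPKM with dox, lay between 4.14 FPKM at 0 h and 17.7 FPKM at 48 h. Pipox, at 12.6 FPKM with dox, was below its 21.9 and 25.3 FPKM at these time points.

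**Figure D3:**
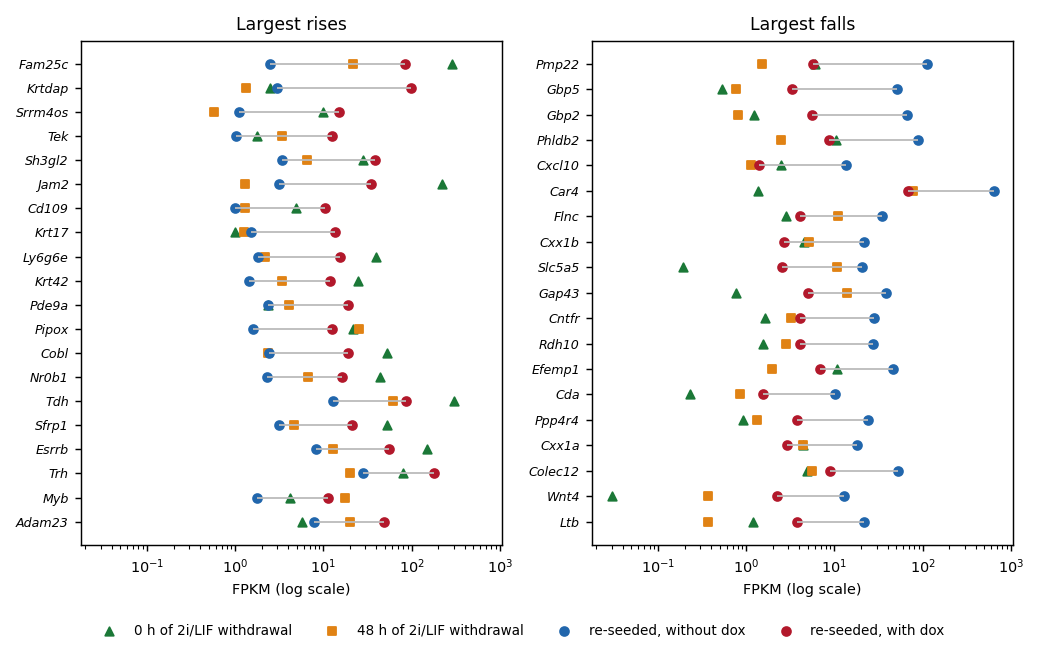
FPKM (horizontal, log scale) of the genes with the largest rise (left) and the largest fall (right) at 0 h (triangles) and 48 h (squares) of 2i/LIF withdrawal and after re-seeding without dox (blue) and with dox (red). Among the falls the blue points lie to the right of the other symbols, as for Pmp22 at 113 FPKM against 1.51 to 5.98 FPKM elsewhere in its row.

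A few genes passed 10 FPKM in one arm and stayed under 1 FPKM in the other. Besides Fgf5, they were Crygn, Lrrc34, Gm20538 and Gm28625. Lrrc34, a leucine-rich repeat protein, was at 0.630 FPKM –dox and 13.6 FPKM +dox, and had been at 40.4 FPKM at 0 h of withdrawal. Crygn, a crystallin, was at 0.110 FPKM –dox and 15.7 FPKM +dox, but in the other 13 conditions it lay between 2.65 and 10.4 FPKM, so that the –dox value stands apart from all. Gm20538, without a described function, was at 98.4 FPKM –dox and at most 0.0334 FPKM in each of the other 14 conditions. It overlaps Ndufb8 and Sec31b on the same strand, and Ndufb8 was at 873.9 and 936.5 FPKM, and reads of overlapping genes may be divided between them. Gm28625 was at 10.5 FPKM –dox and listed at 0 with dox.

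In absolute FPKM, the 10 largest gains were those of ribosomal protein genes and ferritin. Rps27 was at 10338 FPKM –dox and 13192 FPKM +dox, Rpl28 at 6626 and 9418 FPKM and Ftl1 (ferritin light chain) at 5273 and 7733 FPKM. Rps20, Rpl13a, Rplp1, Rps2, Rpl36, Rps26 and Rps14 make up the rest. All 10 stayed under 2-fold, with ratios from 1.22 to 1.47, and such genes share reads with many pseudogenes. The largest losses were those of Mt2 (metallothionein, 6196 and 3162 FPKM), Krt18, Bex1 (2006 and 1159 FPKM), Slc2a3, the imprinted RNA gene H19 (759 and 160.8 FPKM), the IGF binding protein gene Igfbp2 (800.2 and 214 FPKM), Car4, Tpm1, Ngfrap1 (1073 and 620 FPKM) and Dynll1 (1268 and 844 FPKM). Of these, Mt2, Bex1, Ngfrap1 and Dynll1 did not reach 2-fold.

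Where the genes had stood during the preceding differentiation was compared in libraries that the dox comparison does not share. Of the 1645 genes at least 2-fold lower at 48 h than at 0 h of withdrawal, 17.9% rose and 11.5% fell with dox. Of the 1345 genes at least 2-fold higher at 48 h, 8.70% rose and 14.6% fell. Among the 9675 genes that had changed less, 4.33% rose and 4.48% fell. Both shares were thus larger in the groups that had moved in differentiation, with the rises above the falls among lost genes and the falls above the rises among gained genes; the groups differ in level as well, and its part was not tested. Put the other way, 35.5% of the 831 higher genes and 23.1% of the 818 lower genes had been lost during withdrawal, against 13% of all genes compared. The lost genes include fibroblast and feeder markers such as Col1a1 (229 FPKM at 0 h, 5.00 FPKM at 48 h) and Lox (121 and 5.81 FPKM). Thy1 of that list went the other way (4.01 and 17.7 FPKM). The part of such genes in these shares was not tested.

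**Figure D4:**
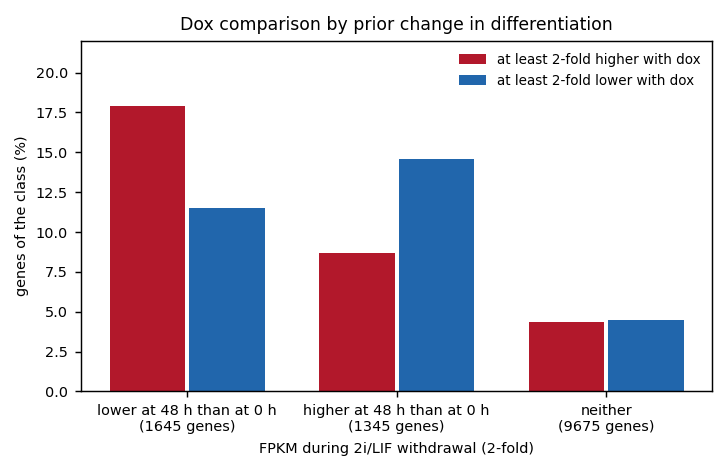
Share of genes (%, bars from 0) that rose (red) or fell (blue) by at least 2-fold with dox, for genes at least 2-fold lower at 48 h than at 0 h of withdrawal, at least 2-fold higher, or neither, with the number of genes under each pair. Rises reach 17.9% among genes lost during withdrawal and falls reach 14.6% among genes gained.

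The same comparison of +dox with –dox exists for cells that had differentiated for 0, 24 and 96 h before re-seeding, from libraries of their own. At 0 h, 3.62% of 12751 genes rose and 5.61% fell. At 24 h, 2.87% of 12708 genes rose and 3.4% fell, and at 96 h, 6.67% of 12688 genes rose and 11.1% fell. Of the 831 genes higher at 48 h, 80 (9.63%) were also higher at 0 h, 148 (17.8%) at 24 h and 222 (26.7%) at 96 h, which are 17.3%, 40.5% and 26.2% of the genes higher at those times. Of the 818 lower genes, 77 (9.41%) were also lower at 0 h, 201 (24.6%) at 24 h and 318 (38.9%) at 96 h. These are 10.8%, 46.5% and 22.6% of the genes lower at those times. Of the higher genes, 725 reached 1 FPKM at 0 h, 719 at 24 h and 557 at 96 h. Of the lower genes, 478, 636 and 705 did, in the same order. The rest could not be called there. In the opposite direction, 61 of the higher genes fell at 0 h, 12 at 24 h and 73 at 96 h. Of the lower genes, 34, 17 and 25 rose. At each other time taken alone, most genes past 2-fold at 48 h were not past it, counting those under 1 FPKM there. How many were past it at none of these times was not counted. The difference between start times was not tested.

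**Figure D5:**
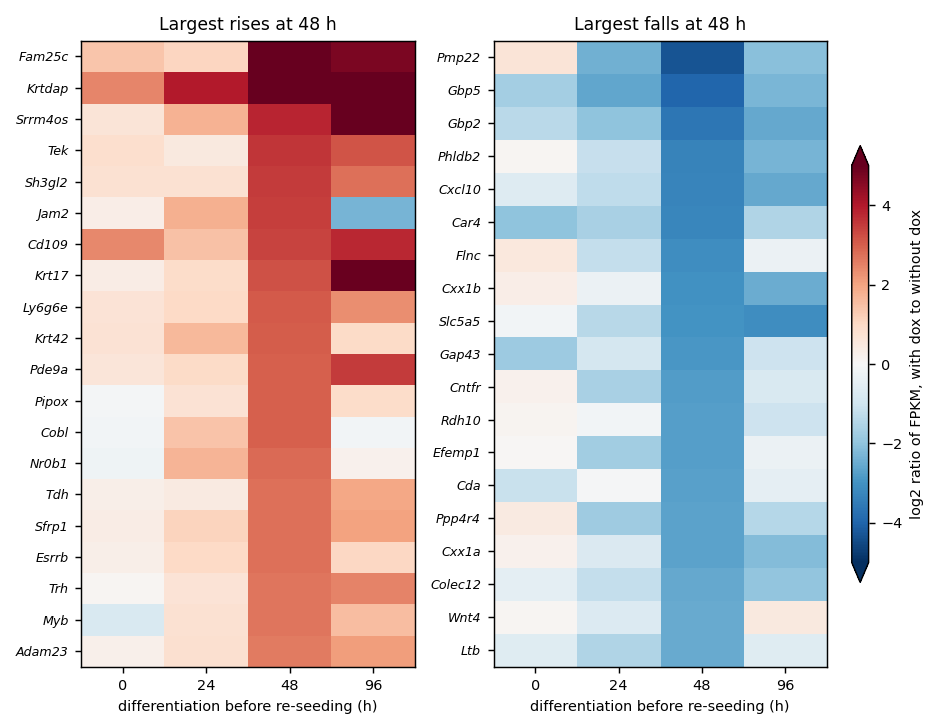
Log2 ratio of FPKM with dox to without dox (colour, red higher and blue lower with dox, cut at 5 in either direction) for the largest rises (left) and falls (right) at 48 h, in cells that had differentiated 0, 24, 48 or 96 h before re-seeding. Krtdap is red in all columns, while Jam2 is red at 48 h and blue at 96 h.

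The naive list was counted at each start time. In cells that had not differentiated, 0 of 29 naive genes rose and 5 fell with dox. At 24 h, 5 rose and 1 fell, at 48 h 15 of 28 rose and 0 fell, and at 96 h 6 of 24 rose and 7 fell. Genes entered at each start time with 1 FPKM in either arm there, and entry through 1 arm alone was counted at 48 h only. Esrrb was at 151.3 FPKM –dox and 183 FPKM +dox at 0 h, then 33.2 and 66.5 FPKM at 24 h, then 1.98 and 4.06 FPKM at 96 h, so that both arms lost it as differentiation went on and the ratio was largest at 48 h. At 96 h Nr0b1 was at 0.814 and 0.946 FPKM and Cobl at 0.986 and 0.901 FPKM, under 1 FPKM in both arms. Jam2 was lower with dox at 96 h, at 4.04 FPKM –dox and 0.797 FPKM +dox. It reached 1 FPKM there through the –dox arm alone, which fixed its direction. Pou5f1 stood at 359.6 FPKM –dox and 425 FPKM +dox at 0 h, then 213 and 262 FPKM at 24 h, then 2.63 and 9.95 FPKM at 96 h.

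Some differences were found at most start times. Krtdap rose at each of them, from 2.41 to 13.1 FPKM at 0 h, from 2.17 to 34.0 FPKM at 24 h and from 3.72 to 137 FPKM at 96 h, and its levels with dox were higher the longer the cells had differentiated. Epidermal genes as a list had 6 higher and 0 lower of 13 at 0 h, 4 and 1 of 14 at 24 h and 9 and 4 of 18 at 96 h. Interferon genes gave 1 higher and 1 lower of 17 at 0 h, 1 and 6 of 22 at 24 h and 0 and 19 of 28 at 96 h. Trophoblast genes gave 1 higher and 1 lower of 11 at 0 h, 0 and 6 of 12 at 24 h and 1 and 12 of 15 at 96 h. Wnt targets, which showed 9 lower of 13 at 48 h, gave 0 higher and 2 lower of 8 at 0 h, 1 and 4 of 12 at 24 h and 2 and 7 of 14 at 96 h. How many genes of these lists had reached 1 FPKM through 1 arm alone at 0, 24 and 96 h was not counted. The direction of such genes was fixed by the minimum, so these counts are a description only. H19 was lower with dox throughout, at 188.8 FPKM –dox and 65.6 FPKM +dox at 0 h, then 1256 and 166 FPKM at 24 h, then 11602 and 2214 FPKM at 96 h.

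Genes that moved also lay side by side in the genome. Of the genes compared, 12083 (95.4%) were placed in Gencode M21, and 15 runs of at least 3 neighbours rose and 12 fell together, counting only neighbours among the genes compared. Krt14, Krt16, Krt17 and Krt42 form a rising run on chromosome 11 from 100203162 to 100269871, and Krt7, Krt8 and Krt18 a falling one on chromosome 15 from 101411043 to 102032027. Gbp5, Gbp7, Gbp3 and Gbp2 fell together on chromosome 3 from 142493978 to 142638008. On the same chromosome, from 90514435 to 90624181, the calcium-binding genes S100a13 (31.0 and 74.9 FPKM), S100a14, S100a16 (2.54 and 5.49 FPKM), S100a4 and S100a6 rose. Triml1 (7.44 and 20.9 FPKM), Triml2 (14.7 and 33.1 FPKM) and Zfp42 rose on chromosome 8 from 43129807 to 43306980, and Fgf3 (0.148 and 1.00 FPKM), Fgf4 and Fgf15 on chromosome 7 from 144838083 to 144900953. These genes were chosen for their place and direction, and some runs consist of related genes that can share reads.

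By kind of gene, of 173 lincRNA genes, 16.8% rose and 11% fell, and of 263 antisense genes 16% rose and 12.5% fell, against 6.0% and 6.26% of 11441 protein-coding genes. Shares past 2-fold were higher at low levels for all genes, and the part of expression level in this difference was not tested.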

How the data were processed

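The 30 libraries are poly(A)-selected RNA-seq of secondary iPSCs, 2 for each of 15 conditions. Per the labels and the study's methods, the authors mapped reads to mm10 with TopHat2 2.0.14 against Gencode M4, quantified genes with Cufflinks 2.2.1 and ran Cuffdiff, which combined both replicates into the deposited FPKM values. Use of strand and the library normalization are not given in the sources used here. Columns of the authors' own response calls and groups were not used. Depth per library is unknown.

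A gene was kept with at least 1 FPKM in either arm, and called at a 2-fold plain ratio without pseudocount. Genes at 0 in an arm count as called but enter no median. No statistical test was possible. Genes are named by a rule: the OSKM genes, the 20 largest ratios in each direction (10 FPKM in the higher, 1 FPKM in the lower arm), genes from under 1 to over 10 FPKM, the 10 largest differences in FPKM in each direction, and up to 4 genes per list and direction. The comparison, the 34 gene lists (704 genes, 700 in the table) and the rule were chosen with earlier results of these data known. Symbols of 27 genes had been turned into dates and are not named. Positions are from Gencode M21 on mm10, promoters from RefSeq on GRCm38.p6. Alternatives were tried for the minimum, fold, pseudocount and scaling. Python 3.11.15, pandas 2.3.3, numpy 2.4.6 and matplotlib 3.10.9 were used. Values of a few genes that the rule names are not reported here.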

Additional observations from a re-analysis of the deposited data

Results flagged for a closer look

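Jam2 moved in opposite directions at 2 start times. Its log2 ratio of +dox to –dox was 3.46 in cells re-seeded after 48 h of differentiation, from 3.15 to 34.6 FPKM, and -2.34 in cells re-seeded after 96 h, from 4.04 to 0.797 FPKM. At 96 h Jam2 reached 1 FPKM through the –dox arm alone, which fixed its direction there. Each value combines both replicates, and the difference between the start times was not tested.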

How the results depend on the processing

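The alternatives could not reverse the called direction of a gene. A minimum, a fold or a pseudocount cannot turn a ratio. Scaling to equal sums shifted log2 ratios by only 0.09 in size, and scaling by median ratios by less. Each value combines both replicates, so that none could be left out in turn. No paired analysis was possible because the columns carry no replicate values. The 831 higher and 818 lower genes became 366 and 366 with a minimum of 5 FPKM, 475 and 451 with 1 FPKM required in both arms, 1583 and 1630 without a minimum, 1742 and 1690 at 1.5-fold, 215 and 221 at 4-fold, and 433 and 439 after adding 1 FPKM to both values. Scaling to equal sums gave 770 and 1034, and scaling by median ratios 860 and 803. Under equal sums Sox2 (log2 0.92) lost its call and Myc (-1.04) and Mt2 (-1.06) passed 2-fold, and Sox2 also lost it after adding 1 FPKM (0.999). Of the list medians (log2), adding 1 FPKM moved those of primitive streak to -1.0, extraembryonic endoderm to -0.60, trophoblast to -0.98 and Wnt targets to -1.43, and adding 0.1 FPKM moved the last to -2.33. With a minimum of 5 FPKM the medians were -3.92 for primitive streak, 0.66 for neurectoderm, -0.57 for extraembryonic endoderm, 1.35 for blood, -2.09 for Wnt targets and 0.086 for germline. In 7 lists the median, at most 0.081 in size as reported, changed sign under some setting. Of 134 values for named genes, 11 moved, all with 1 FPKM added. With a 4-fold time course, 27.5% of the genes lost during withdrawal rose and 17.5% fell, and 21.9% of those gained fell. With a minimum of 5 FPKM, 6.84% of the lost genes fell and 4.71% of the gained genes rose. The cause was not tested. Genes of low level, whose ratios spread most, limit every count.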

Other observations

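Imprinted genes, chosen after their values were seen, were not described as a group. Besides H19 and Peg10, the growth factor gene Igf2 fell from 28.3 FPKM –dox to 10.7 FPKM +dox and the zinc finger gene Plagl1 from 21.7 to 9.78 FPKM. The zinc finger gene Peg3 was at 192 and 97.7 FPKM, just under 2-fold, and Cdkn1c, a cell cycle inhibitor, at 6.69 and 4.26 FPKM. Meg3 (194 and 220.2 FPKM), Snrpn (211 and 193 FPKM), Mest (30.6 and 23.5 FPKM), Grb10 (19.2 and 22.5 FPKM) and Dlk1 (3.48 and 2.63 FPKM) stayed under 2-fold as well. Genes of this kind therefore differed among themselves, and none of these named genes rose.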
